A study of Mus musculus with 4 samples.

Results

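The natriuretic peptide and cGMP genes examined here were *Npr1*, *Npr2*, *Npr3*, *Prkg1*, *Pde5a* and *Pde9a*, 6 of the 19030 genes in the expression table, and they were found by their symbols. RNA sequencing had been performed on inguinal white adipose tissue (ingWAT) of 3-month-old C57BL/6 mice kept at 4 °C. The Ctrl group carried loxP-flanked Oct3 alleles (Oct3 fl/fl) without Cre, and the cKO group carried the same alleles with Adiponectin-Cre, whose promoter drives deletion in adipocytes and not in the other cells of the tissue. Both groups shared the floxed alleles and the cold, each group had 2 libraries, and the mice were male. How many mice went into a library is not stated in the sources used here, so the p-values measure only the spread between these libraries.

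The natriuretic peptides are hormones released by the heart and by blood vessels. They bind the receptors NPR1 and NPR2, whose intracellular part is a guanylyl cyclase that makes cGMP, while NPR3 lacks a cyclase and takes the peptides up for degradation. In fat cells the cGMP formed in this way activates protein kinase G, which promotes lipolysis and the thermogenic program, and phosphodiesterases end the signal by hydrolysing cGMP.

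The values were FPKM, fragment numbers divided by the length of the transcript and by the size of the library, and the depth, read from the steps between the low values, was estimated at 17400000 to 18150000 reads per library. Genes with a mean of at least 1 FPKM were tested with limma on log2(FPKM + 1), and a gene was called when its Benjamini-Hochberg adjusted p was under 0.05. *Slc22a3*, the gene for Oct3, was at 16.95 and 17.68 FPKM in Ctrl and at 9.07 and 9.5 FPKM in cKO (log2 fold change −0.83, SE 0.066, adjusted p = 0.000439). Of the 12658 genes tested, 25.8% were called, 13.8% (1750 genes) lower in cKO and the other 1519 higher. The Ctrl libraries also stood apart in skeletal muscle genes, of which all 12 tested were lower in cKO, with a summed level of 2830 and 1930 FPKM in Ctrl against 49.7 and 48.8 FPKM in cKO.

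All 3 receptors were lower in *Oct3*-deficient ingWAT, and the clearance receptor *Npr3* had the largest difference of them, at 0.498 of its Ctrl mean. The 250 bases before 1 transcript start of each receptor gene, as given by RefSeq (GRCm38.p6, the coordinates of mm10), are shown first, since the 3 stretches differ in base composition. The stretches lay at chr3:90465867-90466116 on the minus strand for *Npr1*, at chr4:43631685-43631934 on the plus strand for *Npr2* and at chr15:11907372-11907621 on the minus strand for *Npr3*. The stretches of *Npr2* and *Npr3* lay inside the RefSeq span of their gene, and that of *Npr1* in part, since each span reached beyond the transcript start used here. They read 5′ to 3′, with motif matches in capitals:
Npr1: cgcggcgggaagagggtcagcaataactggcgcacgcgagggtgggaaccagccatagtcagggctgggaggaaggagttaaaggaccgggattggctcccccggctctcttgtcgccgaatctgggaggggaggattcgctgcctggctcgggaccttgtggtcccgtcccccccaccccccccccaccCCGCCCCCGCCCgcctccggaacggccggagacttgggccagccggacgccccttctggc
Npr2: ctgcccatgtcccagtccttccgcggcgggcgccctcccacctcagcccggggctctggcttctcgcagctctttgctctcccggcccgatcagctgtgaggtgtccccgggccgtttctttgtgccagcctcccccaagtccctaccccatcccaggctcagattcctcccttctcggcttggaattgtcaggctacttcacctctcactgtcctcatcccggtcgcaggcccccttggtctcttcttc
Npr3: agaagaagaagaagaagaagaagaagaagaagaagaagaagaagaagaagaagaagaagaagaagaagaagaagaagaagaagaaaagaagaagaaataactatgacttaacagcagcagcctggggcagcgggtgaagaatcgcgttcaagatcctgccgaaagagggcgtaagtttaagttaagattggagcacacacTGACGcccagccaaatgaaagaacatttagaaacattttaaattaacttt
The share of G and C bases was 70.4% for *Npr1*, 64.4% for *Npr2* and 38.8% for *Npr3*, against a median of 52.4% over the 32851 windows of all genes. The capitals before *Npr1* are 2 GC boxes (GGGCGG, here as CCGCCC on the printed strand), a motif held by 32.7% of all windows. The capitals before *Npr3* are 1 half-site of the cAMP response element (TGACG or CGTCA), which begins 50 bases before the start and is held by 17.8% of all windows. The window of *Npr3* opens with a long repeat of aga, and that of *Npr2* held none of the motifs searched on both strands, which also were the full cAMP response element (TGACGTCA, which contains the half-site, 1.55% of windows), TATAAA (12.4%) and CACGTG (6.02%). A match is a description of the letters and not of a bound site. Windows were found for 5 of the 6 genes, *Pde9a* being the one without.

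*Npr1* encodes the receptor for atrial and B-type natriuretic peptide (Entrez 18160, chr3:90450591-90465928, minus strand). Its level was 22.98 and 20.63 FPKM in the Ctrl libraries and 17.27 and 17.82 FPKM in the cKO libraries, with means of 21.8 ± 1.66 and 17.5 ± 0.389 (SD, n = 2 each). Both cKO libraries were thus below both Ctrl libraries, a pattern seen in 34.6% of all genes tested. In cKO the mean fell by 19.5%, and the log2 fold change of −0.30 (SE 0.071) had an adjusted p of 0.0222. The call was lost without Ctrl 1 (−0.22), without cKO 1 (−0.28) and without cKO 2 (−0.32). With any 1 library left out, here and for the genes below, fewer of all genes were called than with every library kept. The call was also lost with all genes tested regardless of level (adjusted p = 0.0774). In that setting 9.26% of all genes were called and 5.75% were called lower.

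*Npr2* encodes the receptor for C-type natriuretic peptide (Entrez 230103, chr4:43629015-43651437, plus strand). It was at 17.83 and 17.33 FPKM in Ctrl and at 13.69 and 13.99 FPKM in cKO. The means were 17.6 ± 0.354 and 13.8 ± 0.212 FPKM (SD, n = 2 each), so the gap between the groups was many times the gap between libraries of 1 group. The log2 fold change was −0.32 (SE 0.0613, adjusted p = 0.00911), a decrease of the mean by 21.3%. The call was lost without Ctrl 1 (−0.30) and without Ctrl 2 (−0.34), fits in which fewer of all genes were called.

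*Npr3*, the clearance receptor (Entrez 18162, chr15:11839896-11907837, minus strand), was at 18.88 and 22.49 FPKM in Ctrl and at 10.26 and 10.33 FPKM in cKO. The Ctrl libraries were farther from each other than the cKO libraries were, with means of 20.7 ± 2.55 and 10.3 ± 0.0495 FPKM (SD, n = 2 each). The decrease was 50.2% of the Ctrl mean, with a log2 fold change of −0.94 (SE 0.0882, adjusted p = 0.00079). Only 1.46% of the genes tested had a lower log2 fold change. With any 1 library left out the log2 fold change was between −1.06 and −0.82 and the adjusted p between 0.0104 and 0.0127.

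Of the 4 genes tested among the 6, 3 were called, all of them lower, where 25.8% of all genes tested were called and 13.8% were called lower, and the median log2 fold change of the 4 was −0.32 against −0.006 for all genes tested. In whole tissue, fewer cells of a type and less RNA per cell cannot be told apart. The exons of each receptor gene overlap those of a gene on the opposite strand. The partners were *Gm16048* over 11.7% of the exon bases of *Npr1*, *Gm12473* over 5.7% of *Npr2* and *Gm5144* over 3.42% of *Npr3*. Reads of the partners cannot be told apart where the strand was not kept. Levels of *Gm16048* and *Gm12473* were not in the data.

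**Figure D1:**
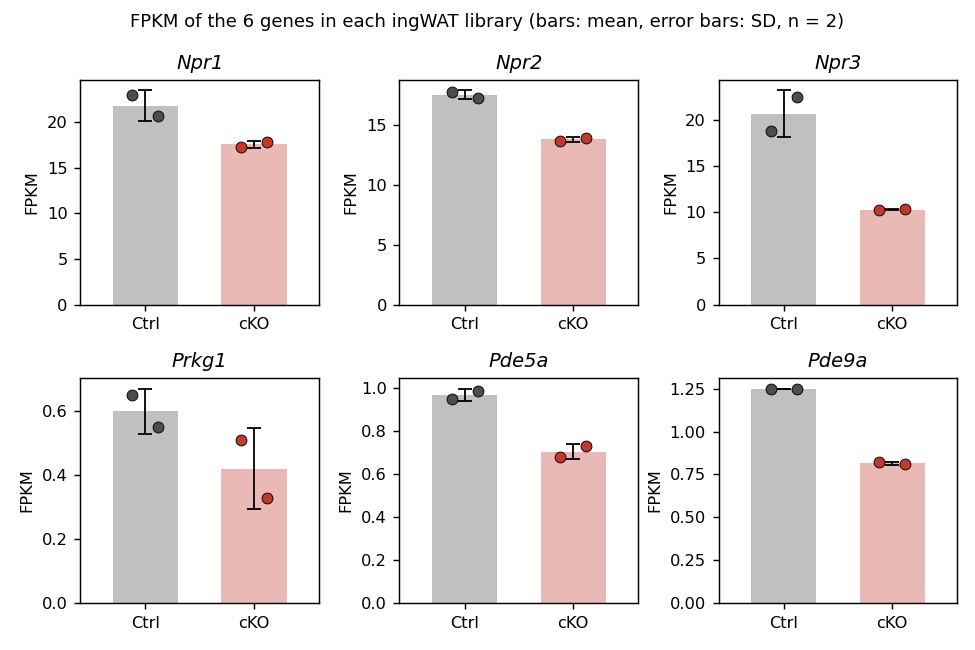
FPKM of the 6 genes in each library, one panel per gene with its own y axis starting at 0. Bars are the means of the 2 Ctrl and 2 cKO libraries, error bars the SD and points the single libraries. In every panel both cKO points lie below both Ctrl points, as in 29.9% of all 19030 genes. The widest relative gap is that of *Npr3* (20.7 against 10.3 FPKM).

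**Figure D2:**
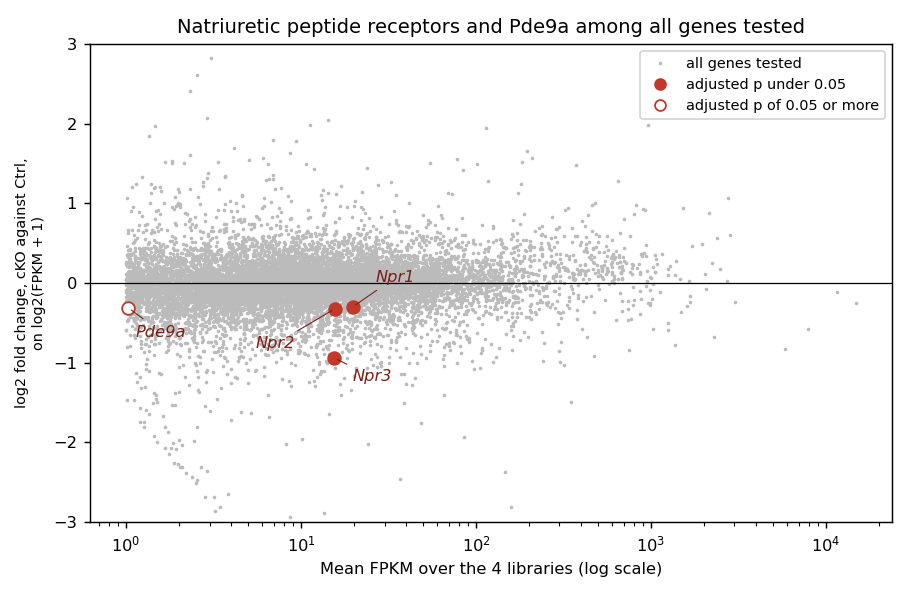
Each point is 1 of the 12658 genes tested, with the mean FPKM over the 4 libraries on the x axis (log scale) and the log2 fold change of cKO against Ctrl on log2(FPKM + 1) on the y axis, limited to 3 in either direction with 19 genes beyond it. *Npr3* lies at −0.94, apart from *Npr1*, *Npr2* and *Pde9a* between −0.32 and −0.30, and filled markers have an adjusted p under 0.05.

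FPKM is given per length of transcript, so levels were set side by side between genes, with a limit for *Npr3*. It has 3 transcripts of 1969 to 6892 bases, while *Npr1* and *Npr2* have 1 each. The place of *Npr3* in the order and its ratios to the others thus rest on the length assigned to it. The order of the receptors by level differed between the genotypes. In Ctrl, *Npr1* (20.63 to 22.98 FPKM) and *Npr3* (18.88 to 22.49 FPKM) overlapped, and *Npr2* (17.33 to 17.83 FPKM) lay below both. In cKO the order was *Npr1* (17.27 to 17.82 FPKM), *Npr2* (13.69 to 13.99 FPKM) and *Npr3* (10.26 to 10.33 FPKM), with no overlap between neighbours. The other 3 genes were lower by an order of magnitude in both groups, with *Pde9a* (1.25 and 0.815 FPKM), *Pde5a* (0.97 and 0.705 FPKM) and *Prkg1* (0.6 and 0.42 FPKM) in the same order by their Ctrl and cKO means.

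The ratio of the signalling to the clearance receptor is often used as a simple measure of how a tissue is set for natriuretic peptides. The level of *Npr1* divided by that of *Npr3* was 1.22 and 0.917 in Ctrl and 1.68 and 1.73 in cKO. Both cKO libraries had the higher ratio, with geometric means of 1.06 in Ctrl and 1.7 in cKO, a 1.61-fold difference (0.69 on the log2 scale, with an SD of 0.289 in Ctrl and 0.025 in cKO). An exact two-sided permutation test gave p = 0.333, the smallest value that 2 against 2 libraries allow, so the design could not reach 0.05. The difference on the log2 scale was 0.49 without Ctrl 2 and 0.89 without Ctrl 1.

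**Figure D3:**
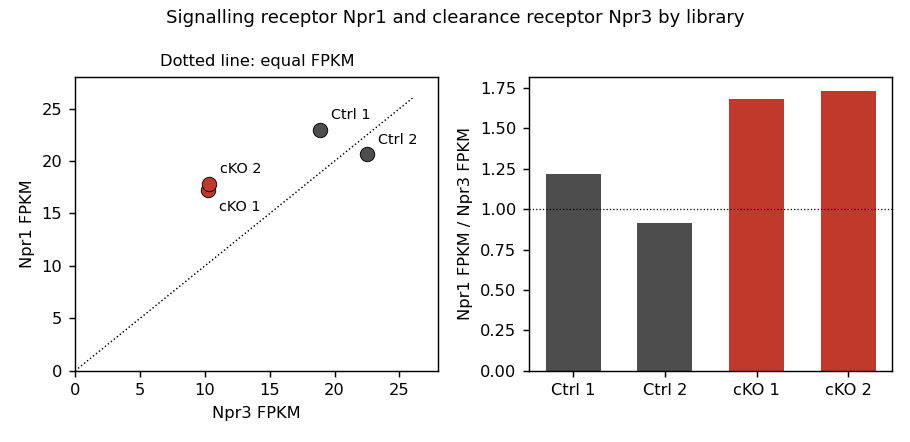
Left, the level of *Npr1* against that of *Npr3* in FPKM for each library, with a dotted line of equal levels, and right, their ratio in each library with bars from 0. The cKO libraries have ratios of 1.68 and 1.73 and the Ctrl libraries 1.22 and 0.917, which lie on both sides of the dotted line at 1.

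*Prkg1* encodes cGMP-dependent protein kinase type I, the main kinase that cGMP activates in smooth muscle and fat cells (Entrez 19091, chr19:30564487-31765268, minus strand). It was at 0.65 and 0.55 FPKM in Ctrl and at 0.51 and 0.33 FPKM in cKO, below the mean of 1 FPKM needed for the test. The cKO libraries were both lower, as in 29.9% of all 19030 genes. The means were 0.6 ± 0.0707 and 0.42 ± 0.127 FPKM (SD, n = 2 each). However, the nearest libraries of the groups (0.55 and 0.51 FPKM) were closer to each other than the cKO libraries were. These levels correspond to about 16 to 82 reads depending on the transcript counted, a counting error of 11.1% to 24.8% for each value. With all genes tested regardless of level, the log2 fold change was −0.17 (SE 0.0852) and the adjusted p 0.279. The difference was −0.27 without cKO 1 and −0.08 without cKO 2.

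*Pde5a* encodes a phosphodiesterase specific for cGMP, the target of sildenafil (Entrez 242202, chr3:122729158-122859374, plus strand). It too was below the level needed for the test, at 0.95 and 0.99 FPKM in Ctrl and 0.68 and 0.73 FPKM in cKO. Both cKO libraries were below both Ctrl libraries, as in 29.9% of all 19030 genes. The means were 0.97 ± 0.0283 and 0.705 ± 0.0354 FPKM (SD, n = 2 each), resting on about 82 to 122 reads per library. With all genes tested the log2 fold change was −0.21 (SE 0.058, adjusted p = 0.114).

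*Pde9a* encodes the phosphodiesterase with the highest affinity for cGMP, known in the heart for acting on cGMP made by natriuretic peptide receptors (Entrez 18585, chr17:31386105-31476309, plus strand). Its level was 1.25 FPKM in both Ctrl libraries and 0.82 and 0.81 FPKM in the cKO libraries, a ratio of the means of 0.652. The log2 fold change of −0.31 (SE 0.119) had an adjusted p of 0.0998 and did not pass. With a pseudocount of 0.1 it was −0.56 (adjusted p = 0.122). It passed when the variance was not allowed to vary with the level (adjusted p = 0.0228). Each value stood for about 46 to 47 reads in Ctrl and 29 in cKO, with a counting error of 14.7% to 18.5%, so the libraries of each group differed by less than counting alone gives on average.

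For all 6 genes both cKO libraries were below both Ctrl libraries, which 29.9% of all 19030 genes also showed.

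The other genes of the pathway were taken from lists of 52 genes by role, of which 47 were in the table and 24 were tested. Of these, 5 were lower, 3 were higher and 16 were not called, and their median log2 fold change was −0.07. The share over all genes tested was 25.8% called and 13.8% called lower. After quantile normalization 12 were called, 8 of them lower.

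Among the peptides and the proteases that process or degrade them, *Ide* was higher in cKO. *Ide*, the insulin-degrading enzyme that also cleaves atrial natriuretic peptide, was at 16.05 and 18.83 FPKM in Ctrl and at 34.47 and 28.63 FPKM in cKO (log2 fold change 0.82, SE 0.106, adjusted p = 0.00222). The call held without any 1 library. *Mme*, the gene for neprilysin, which degrades the peptides, had a log2 fold change of −0.07 and *Furin*, a protease that processes their precursors, one of −0.09, neither of them called. *Nppa*, the gene for the atrial peptide itself, was near 0 at 0.13 and 0.13 FPKM in Ctrl and 0.07 and 0.14 FPKM in cKO, and *Nppb* and *Nppc* were not analysed here.

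Nitric oxide synthases and soluble guanylyl cyclase form the branch that makes cGMP in the cytosol. All 4 of its genes tested were called lower in cKO (median −0.55 on the log2 scale), where 13.8% of all genes tested were called lower. The 2 not tested were at 0.54 FPKM or less. *Nos3*, the endothelial nitric oxide synthase, was at 32.96 and 28.51 FPKM in Ctrl and 18.32 and 20.14 FPKM in cKO (−0.65, SE 0.0852, adjusted p = 0.00233). *Gucy1b3*, the beta subunit of soluble guanylyl cyclase, was at 4.03 and 4.49 FPKM in Ctrl and 2.46 and 2.44 FPKM in cKO (−0.61, SE 0.0937, adjusted p = 0.00426). For both genes every cKO library was below every Ctrl library, as in 34.6% of all genes tested. *Gucy1a3*, the alpha subunit, was at 4.97 and 4.75 FPKM in Ctrl and 2.9 and 3.7 FPKM in cKO (−0.45, adjusted p = 0.0235), and *Nos2*, the inducible synthase, at 4.19 and 3.53 FPKM in Ctrl and 2.23 and 2.67 FPKM in cKO (−0.49, adjusted p = 0.0195). *Nos3* stayed past the threshold with any 1 library left out. *Gucy1b3* did not pass without Ctrl 2 (−0.54, adjusted p = 0.0535). *Gucy1a3* did not pass without Ctrl 1 (−0.43, adjusted p = 0.181), Ctrl 2 (−0.48, 0.122) or cKO 1 (−0.32, 0.0805), and *Nos2* did not pass without Ctrl 1 (−0.40, adjusted p = 0.168), Ctrl 2 (−0.59, 0.0622) or cKO 1 (−0.40, 0.0883).

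The remaining membrane guanylyl cyclases and their peptides were at 0.2 FPKM or less in every library, so that of the receptor cyclases measured *Npr1* and *Npr2* were the ones above 1 FPKM. Of the 14 other genes listed that bear a phosphodiesterase name, 5 were tested and 0 were called by limma, with log2 fold changes from −0.22 to 0.01. *Pde3b*, the phosphodiesterase by which insulin restrains lipolysis and which cGMP inhibits, was the most abundant of them, at 63.59 and 66.53 FPKM in Ctrl and 63.83 and 67.28 FPKM in cKO (0.01, SE 0.0588). At an unadjusted p under 0.05, 1 of the 5 passed, *Pde1a* (−0.22, adjusted p = 0.0529), where 20.2% of all genes tested passed in that direction. The exporters *Abcc4* (0.22) and *Abcc5* (−0.15) were not called.

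Of the 10 kinase and effector genes tested, 3 were called, 1 lower and 2 higher, a share close to the 25.8% of all genes tested. *Vasp*, an actin regulator phosphorylated by protein kinase G, was at 41.18 and 41.11 FPKM in Ctrl and 48.5 and 53.42 FPKM in cKO (0.30, SE 0.0645, adjusted p = 0.0148). *Rgs2*, a regulator of G protein signalling that the kinase activates, was at 16.41 and 20.03 FPKM in Ctrl and 25.45 and 25 FPKM in cKO (0.45, adjusted p = 0.0119). *Hspb6*, a small heat shock protein and kinase substrate, was at 31.37 and 25.22 FPKM in Ctrl and 20.06 and 18.8 FPKM in cKO (−0.51, adjusted p = 0.0108). Each of the 3 calls was lost without at least 1 of the libraries. *Vasp* did not pass without Ctrl 1 (0.30, adjusted p = 0.115), Ctrl 2 (0.30, 0.0949) or cKO 2 (0.23, 0.0658). *Rgs2* did not pass without Ctrl 1 (0.32, adjusted p = 0.0763), cKO 1 (0.44, 0.0726) or cKO 2 (0.47, 0.0614), and *Hspb6* did not pass without Ctrl 1 (−0.36, adjusted p = 0.075) or cKO 2 (−0.47, 0.0721). The genes of the lipolytic end of the pathway, hormone-sensitive lipase *Lipe* (−0.02) and perilipin *Plin1* (−0.07), were not called.

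**Figure D4:**
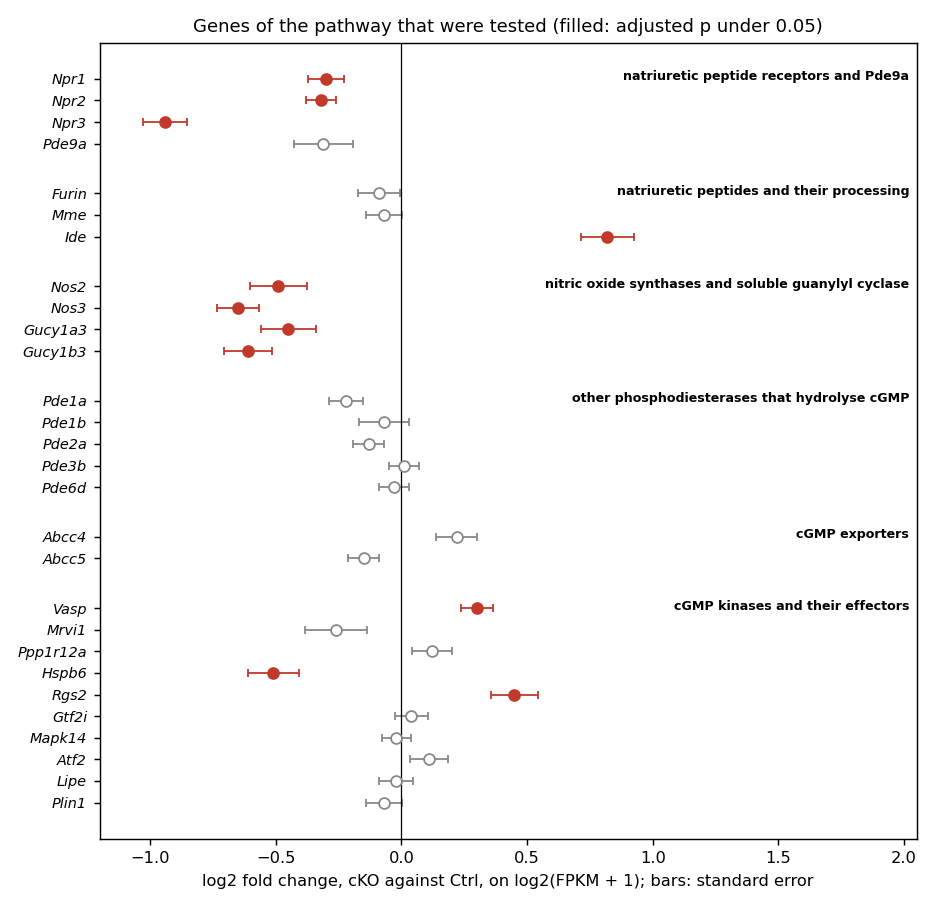
The log2 fold change of cKO against Ctrl on log2(FPKM + 1) for each gene of the 6 and of the pathway lists that was tested, grouped by role, with the standard error as bars and filled points for an adjusted p under 0.05. The 3 receptors and the 4 genes of the nitric oxide branch lie to the left of 0, and the 5 other genes with a phosphodiesterase name between −0.22 and 0.01.

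Natriuretic peptide and cGMP genes are used by several cell types of adipose tissue, so markers of those types are given beside them. For their counts, the share over all genes tested was 25.8% called and 13.8% called lower. Smooth muscle and pericyte markers, cells in which *Prkg1* and *Pde5a* are known to be abundant, had a summed level of 250 and 237 FPKM in Ctrl and 200 and 207 FPKM in cKO, with 5 lower and 1 higher of 14 tested. The contractile genes *Myh11* (0.07), *Tagln* (0.06) and *Cnn1* (0.18) were not called, and *Acta2* was higher (0.24, adjusted p = 0.023). The 5 called lower, named here after their values were seen, were *Des* (−0.92), *Notch3* (−0.52), *Cspg4* (−0.50), *Pdgfrb* (−0.39) and *Rgs5* (−0.32). Of these, *Notch3*, *Cspg4*, *Pdgfrb* and *Rgs5* are known as pericyte genes. So are *Kcnj8* (−0.26), *Abcc9* (−0.24) and *Higd1b* (0.1), which were not called. The rest of this smooth muscle and pericyte list, *Smtn* (−0.16) and *Lmod1* (−0.08), was not called either. *Des*, which is part of the sums, was at 40.86 and 31.26 FPKM in Ctrl and 17.9 and 18.86 FPKM in cKO. The part of skeletal muscle RNA in its level was not tested. Markers of endothelial cells, the main site of *Nos3*, summed to 391 and 382 FPKM in Ctrl and 322 and 346 FPKM in cKO, with 6 of 12 lower. *Cdh5* (−0.24) and *Tie1* (−0.34) were lower while *Pecam1* (−0.06) and *Kdr* (−0.10) were not called. Without single libraries the number lower was 2 (Ctrl 1), 3 (Ctrl 2), 3 (cKO 1) and 7 (cKO 2) for the smooth muscle list, and 1, 2, 3 and 5 for the endothelial list.

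Of all 12658 genes tested, 1750 (13.8%) were called lower and 1519 higher. Fibroblast progenitor markers were lower for 8 of 11 genes, with a median of −0.74 on the log2 scale. Their summed level was 1780 and 1530 FPKM in Ctrl and 1030 and 1040 FPKM in cKO. *Pdgfra* (−0.63), *Dpp4* (−0.74) and *Pi16* (−1.94) were lower and *Col1a1* (−0.22) was not called. Without Ctrl 1 the number lower was 5. White adipocyte markers were lower for 6 of 11 genes, *Adipoq* (−0.58) and *Lep* (−1.40) among them, with *Plin1* (−0.07) and *Cidec* (0.07) not called, and they summed to 25000 and 25100 FPKM in Ctrl and 20500 and 20700 FPKM in cKO. Of the markers of brown and beige adipocytes, which burn fuel for heat, 10 of 11 were higher, with a summed level of 1640 and 1960 FPKM in Ctrl and 5230 and 4440 FPKM in cKO. *Ucp1*, the uncoupling protein, had a log2 fold change of 1.99, and *Cidea* one of 1.28. Lymphocyte markers were higher for 9 of 10 genes, with a summed level of 258 and 290 FPKM in Ctrl and 402 and 472 FPKM in cKO. Macrophage markers summed to 775 and 703 FPKM in Ctrl and to 785 and 813 FPKM in cKO, with 3 lower and 2 higher of 9. The part of these cell types and of the muscle RNA in the levels of the receptors was not tested.

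**Figure D5:**
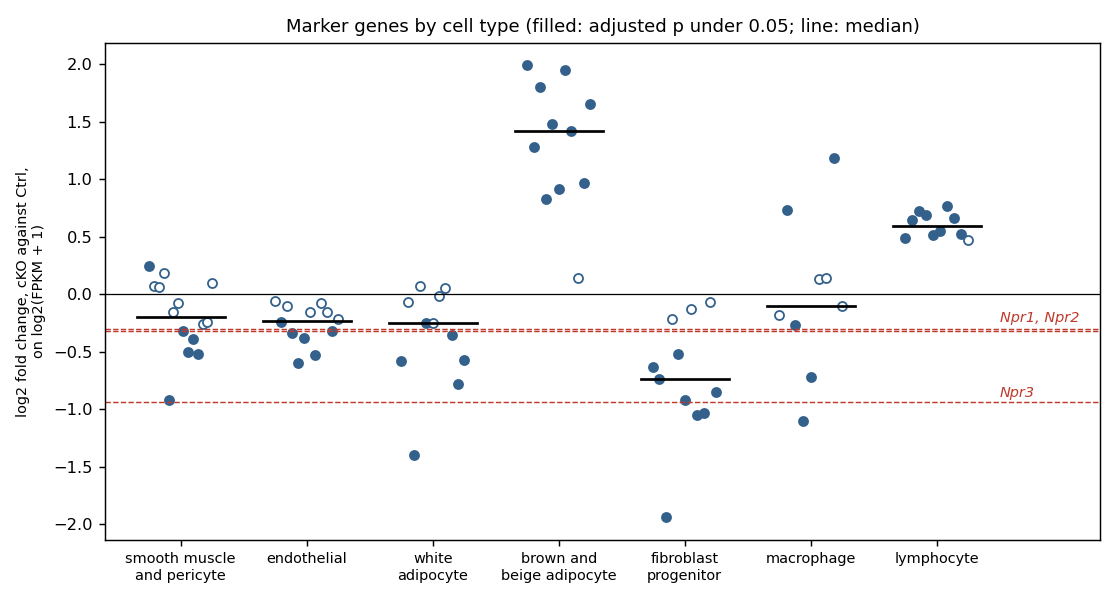
The log2 fold change of cKO against Ctrl on log2(FPKM + 1) for each marker gene tested, in 7 lists of cell types, with filled points for an adjusted p under 0.05 and a line at the list's median. The medians run from −0.74 for fibroblast progenitors to 1.42 for brown and beige adipocytes, and the skeletal muscle list, with a median of −6.42, is left out.

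The genes nearest to each of the 4 tested genes in profile were found by the Euclidean distance of centred log2(FPKM + 1) values over the 4 libraries, among 12657 other genes. For *Npr3* they were *Slc6a13*, a transporter of GABA and taurine, at 6.56 and 7.04 FPKM in Ctrl and 2.82 and 2.98 FPKM in cKO (distance 0.13), and *Zfp185* (0.134). The other 3 had much closer neighbours, *Rtp3* (0.0107) and *Paqr7* (0.0131) for *Npr1*, *Ctdsp2* (0.00636) for *Npr2* and *Gnptg* (0.0135) and *Cd99l2* (0.0162) for *Pde9a*. The distance depends on how many genes changed by a like amount. Of the genes tested, 1.46% had a lower log2 fold change than *Npr3*, against 13.6% for *Npr1*, 12.1% for *Npr2* and 12.9% for *Pde9a*. With 4 libraries such likeness describes these values only.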

How the data were processed

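Polyadenylated RNA had been read as single-end sequences on a BGISEQ-500, and the authors deposited 1 table of FPKM per gene and library. The submitters' processing notes name HISAT2 2.0.4, RSEM 1.2.12 and mm10, without their roles. No scaling between libraries is stated. Libraries were assigned to genotypes by their titles.

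Values were used as log2(FPKM + 1). Genes with a mean of at least 1 FPKM were tested with limma 3.58.1 in R 4.3.3 (eBayes with a trend, Benjamini-Hochberg adjustment over all genes tested, threshold 0.05), without the replicate number as a term. A fold change on this scale understates the change of low genes. The procedure was tested on simulated data. Depth was estimated from 284 genes for short RNAs, of whose low values 84.3% to 90.5% were whole reads within 0.1, and read numbers cover counting error only. Sequences and positions are from RefSeq for GRCm38.p6, and overlaps on the opposite strand from the given GENCODE annotation.

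The 6 genes, the pathway lists and the marker lists were chosen with earlier results of these data known. Named were the 6 genes, the pathway genes called or needed for a role, the first 4 markers of a list at most, *Slc22a3*, and the 2 nearest profiles of each gene tested, of which 1 is not reported here.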

Additional observations from a re-analysis of the deposited data

How the results depend on the processing

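*Npr3* kept its direction and its call under all 11 alternatives. *Npr1* lost its call with no filter on low values (−0.30, adjusted p = 0.0774) and ranged from −0.37 to −0.22 with 1 library left out, and *Npr2* ranged from −0.34 to −0.30. With a pseudocount of 0.1, *Prkg1* was at −0.45, *Pde5a* at −0.41 and *Pde9a* at −0.56 (adjusted p = 0.122), and *Pde5a* was at −0.14 after quantile normalization. *Pde9a* passed in eBayes without a trend (−0.31, adjusted p = 0.0228). With no filter 1762 of all genes and 3 pathway genes were called, against 3269 and 8, and *Nos2* (adjusted p = 0.0906), *Gucy1a3* (0.104), *Vasp* (0.0604), *Hspb6* (0.0821) and *Rgs2* (0.0806) did not pass. Quantile normalization gave 12 pathway genes called. With 1 library left out the numbers called were 787 (without Ctrl 1) to 2340 (without cKO 2) for all genes, 3 to 5 for the pathway and 35 to 56 for the markers, against 62, and *Prkg1* ranged from −0.27 to −0.08. *Ide*, *Nos3* and *Slc22a3* kept their calls in every alternative, and no value of the 6 genes reversed. The replicate numbers were not shown to pair the libraries (correlation of deviations 0.0148 over 12658 genes), and the replicate block left every call on the 6 genes as it was (*Npr1* −0.30, adjusted p = 0.0207) and gave 3383 calls. *Prkg1*, *Pde5a* and *Pde9a* rest on about 16 to 122 reads per library. The cause of these changes was not tested.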

Other observations

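The ratio of *Npr2* to *Npr3* was 0.944 and 0.771 in Ctrl and 1.33 and 1.35 in cKO. *Prkg2*, which encodes the membrane-bound type II cGMP kinase and was chosen after its values were seen, was at 1.26 and 1.11 FPKM in Ctrl and 0.58 and 0.68 FPKM in cKO, under the level needed for the test. *Gm5144*, whose exons overlap those of *Npr3* on the other strand, was at 1.82 and 2.06 FPKM in Ctrl and 2.96 and 1.6 FPKM in cKO.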
